A study of Mus musculus with 13 samples.

Results

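Keratins are the intermediate filament proteins of epithelial cells. A filament is built from pairs of 1 type I and 1 type II keratin, so an epithelium needs both kinds, and the pair in use tells basal cells of stratified epithelia (Krt14 with Krt5) from simple epithelia (Krt18 with Krt8). The enamel organ is the dental epithelium that lays down enamel. It holds ameloblasts, stratum intermedium and papillary cells, and the progenitors of the cervical loop, and keratin filaments give these layers their mechanical strength. The 10 keratin genes described here are the type I genes Krt14, Krt15, Krt17, Krt18 and Krt19 and the type II genes Krt5, Krt7, Krt8, Krt75 and Krt76. They were picked by gene symbol from the count table, in which all 10 were found among 48709 mouse genes, and 44 other keratin genes are listed there too.

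The counts are bulk RNA-seq of enamel organs from the mandibular incisors of mice at postnatal day 11. The groups are 5 libraries of Tgfbr2-G357W/+ mice (Het), which carry 1 copy of a substitution in the TGF-beta type II receptor, and 8 libraries of Tgfbr2-+/+ littermates (WT). Het libraries held 20266079 to 26122340 mouse gene counts and WT libraries 18852382 to 26508410. A column names its genotype and a number pair such as 4-2, and libraries are called by that pair here. The first number of the pair, called the library prefix, is 1, 4 or 5, and its meaning is not known from the sources read. There were 1 Het and 3 WT libraries with prefix 1, 2 Het and 3 WT with prefix 4, and 2 of each genotype with prefix 5. Nothing in the labels says that libraries of 1 genotype came from separate mice, so the p-values measure the spread between these libraries. In bulk tissue, fewer cells of a type and less RNA per cell cannot be told apart. The labelled tissue showed its defining genes: the enamel matrix genes Amelx, Ambn and Enam together took 20.2 to 27.0% of all counts in Het libraries and 15.0 to 27.9% in WT libraries.

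The genes lie in 2 clusters. On GRCm38, Krt15 (100131758 to 100135928), Krt19 (100140810 to 100148665), Krt14 (100203162 to 100207548) and Krt17 (100256217 to 100261029) lie on the minus strand of chromosome 11, among the type I genes. The type II genes Krt7, Krt75, Krt5, Krt76 and Krt8 lie on chromosome 15, and the type I gene Krt18 lies at the end of that cluster, 23.7 kb from its filament partner Krt8. Because Krt18 and Krt8 are neighbours and filament partners, with log2 fold changes between genotypes of 0.91 and 0.34, their RefSeq promoter sequences are shown (GRCm38.p6, 250 bases before to 50 bases after the listed start site, gene strand, 5′ to 3′). Capitals mark the short element that SMAD proteins bind, spelled CAGAC. They also mark the TATA box, spelled TATAAA. Both motifs were searched on both strands, so their reverse complements are in capitals as well. The Krt18 window is chr15:102027966-102028265 on the plus strand and the Krt8 window is chr15:102004293-102004592 on the minus strand.
Krt18: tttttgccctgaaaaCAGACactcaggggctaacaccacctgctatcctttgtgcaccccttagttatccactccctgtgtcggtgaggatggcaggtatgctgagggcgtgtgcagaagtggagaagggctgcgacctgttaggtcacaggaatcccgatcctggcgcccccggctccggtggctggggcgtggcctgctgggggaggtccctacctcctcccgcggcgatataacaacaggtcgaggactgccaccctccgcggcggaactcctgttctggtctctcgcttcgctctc
Krt8: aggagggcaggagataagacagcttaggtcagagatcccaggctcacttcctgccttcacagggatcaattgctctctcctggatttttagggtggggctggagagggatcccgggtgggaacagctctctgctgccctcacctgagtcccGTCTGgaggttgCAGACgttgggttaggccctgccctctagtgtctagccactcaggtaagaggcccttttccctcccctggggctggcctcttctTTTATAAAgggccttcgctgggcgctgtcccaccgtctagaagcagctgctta
The Krt18 window held 1 SMAD element and no TATA box. The Krt8 window held 2 SMAD elements and a TATA box whose letters overlap a match on the other strand. The first of these TATA matches begins at -3 from the listed start site, so it lies on that site. The listed start site is itself 140 bases from the start of Krt8 in GENCODE. The SMAD element is common: 49.6% of the 32851 promoters in the table held it on either strand, while the TATA box was in 13.6%. The promoter of Krt5, the most abundant type II member, held neither motif. The RefSeq table matched 7 of the 10 members by symbol. A match is a description of letters only.

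Measured per length, Krt14 was the most abundant member and Krt75 the least. Levels between genes are given as RPKM, which is CPM (counts over library size, scaled by trimmed-mean factors, TMM) divided by the summed exon length in kb, averaged over all 13 libraries. The order was Krt14 at 466 ± 77.9 RPKM, Krt5 at 146 ± 26.6, Krt17 at 111 ± 27.8, Krt15 at 28.0 ± 7.72, Krt8 at 2.92 ± 0.689, Krt18 at 2.74 ± 1.15, Krt76 at 0.794 ± 0.335, Krt19 at 0.759 ± 0.275, Krt7 at 0.434 ± 0.0876 and Krt75 at 0.238 ± 0.0955 (SD over libraries). The most abundant members, Krt14, Krt5, Krt17 and Krt15, thus stood apart from the rest, with a 9.46-fold step from Krt15 down to Krt8. Neighbours in the order were compared within libraries by an exact two-sided sign-flip permutation test of log2 RPKM, and 7 of 9 neighbouring pairs differed after Benjamini-Hochberg adjustment. Krt5 exceeded Krt17 in 9 of 13 libraries (exact adjusted p = 0.0135), and the other 6 pairs that passed were in order in 11 to 13 libraries. Krt8 and Krt18 did not differ beyond their spread (exact adjusted p = 0.332, in order in 9 of 13 libraries), nor did Krt76 and Krt19 (exact adjusted p = 0.966, in order in 7 of 13). Krt7 has many annotated exons, and with the longest transcript as its length it stood at 0.748 RPKM. Its neighbour was then Krt76, from which it did not differ beyond the spread (exact adjusted p = 0.817).

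**Figure D1:**
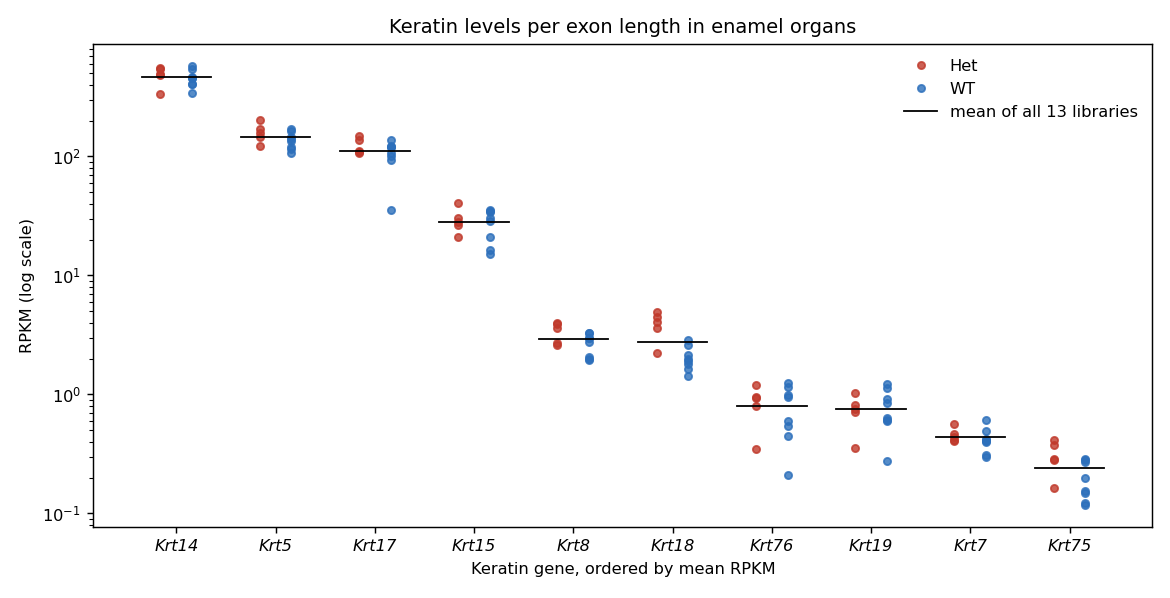
Level of each keratin gene (RPKM, log scale) in every library, Het left and WT right of each gene, with the mean of all 13 libraries as a line. Krt14, Krt5, Krt17 and Krt15 lie at 28.0 to 466 RPKM on average, and the other 6 genes at 0.238 to 2.92.

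The 4 most abundant members made up nearly all of the members' signal per length: 98.8 ± 0.114% of their summed RPKM in Het libraries and 99.1 ± 0.133% in WT libraries (SD, n = 5 and 8). Krt14 alone was 75.2 ± 4.02% of the type I level in Het libraries and 77.3 ± 4.85% in WT libraries, and Krt5 was 97.0 ± 0.595% of the type II level in Het libraries and 97.1 ± 0.466% in WT libraries. Although filaments pair the types, type I RPKM exceeded type II RPKM in every library, by 3.99 ± 0.983 times in Het libraries and 4.31 ± 1.11 times in WT libraries. Together the 10 genes took 0.150 ± 0.0207% of all counts in Het libraries and 0.130 ± 0.0162% in WT libraries. With Amelx, Ambn and Enam left out of the total, the shares were 0.198% in Het libraries and 0.170% in WT libraries.

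None of the 10 keratins passed the test between Het and WT libraries. Counts were tested with edgeR's quasi-likelihood test on 16328 genes, with Benjamini-Hochberg adjustment over all of them and a threshold of 0.05, and all 10 members passed the filter on low counts. Of all genes tested, 14 were called, 0.0857%, and 0 of 10 members were. At an unadjusted p under 0.05, 1 member (Krt18) stood against 1127 of all genes, 6.90%. With the library prefix as a term, 3 members (Krt18, Krt5 and Krt75) had an unadjusted edgeR p under 0.05, against 1603 of all genes, 9.82%, and still 0 passed the adjusted threshold. DESeq2 called Krt18 alone of the 10, against 71 of all genes, 0.435%, and limma-voom called no member. The Het and WT ranges overlapped for all 10 members, while they lay apart for 80 of all genes, 0.490%. Of the members, 9 had a log2 fold change above 0 and 1, Krt19, below 0, with a median of 0.18. Of all genes tested, 49.1% were above 0 and the median was -0.0044. The split of 9 and 1 was the same with RLE or upper-quartile scaling. It was 7 and 3 without the library Het 4-5 or without the libraries of prefix 5, and 8 and 2 without those of prefix 4. Without Het 5-6, WT 1-4 or WT 4-3 it was 10 and 0.

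Krt18 is the type I keratin of simple epithelia and had the smallest p of the members. It had 5.85, 3.20, 5.18, 6.44 and 7.03 CPM in Het libraries 1-2, 4-2, 4-5, 5-5 and 5-6. It had 2.87, 2.34, 2.60, 3.75, 3.05, 2.73, 4.12 and 2.05 CPM in WT libraries 1-1, 1-3, 1-4, 4-1, 4-3, 4-4, 5-1 and 5-3. So 4 of 5 Het libraries lay above every WT library, and Het 4-2 lay within the WT range. These CPM rest on 76 to 160 counts per Het library and 48 to 106 per WT library. The log2 fold change was 0.91 ± 0.21 (SE, a 1.88-fold higher fitted level in Het), the 38th smallest p of all genes, with an edgeR Benjamini-Hochberg adjusted p = 0.118. DESeq2 gave 0.92 ± 0.22 with an adjusted p = 0.00964, limma-voom gave an adjusted p = 0.165, and edgeR with the library prefix as a term also gave an adjusted p = 0.165. The edgeR adjusted p ranged from 0.0551 to 0.381 when each library was left out in turn. DESeq2 kept its call in 10 of 13 such fits and lost it without Het 1-2 (adjusted p = 0.0667), Het 5-5 (0.0893) or Het 5-6 (0.0910). With the prefix as a term its adjusted p was 0.0181. Within prefixes the Het minus WT difference in mean log2 CPM was 1.15 in prefix 1, 0.36 in prefix 4 and 1.18 in prefix 5.

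Krt8, the type II partner of Krt18, had 7.06, 5.06, 7.83, 5.25 and 7.65 CPM in the Het libraries, in the order given above. It had 5.85, 5.37, 4.03, 6.38, 5.81, 3.87, 3.77 and 6.46 CPM in the WT libraries. Here 3 of 5 Het libraries lay above every WT library, and the other 2 lay within the WT range. The log2 fold change was 0.34 ± 0.18 (SE, edgeR Benjamini-Hochberg adjusted p = 0.753), with Het minus WT differences of 0.49, 0.26 and 0.35 in prefixes 1, 4 and 5. Of the 75-base windows of Krt8 transcripts, 23.5% also occur in transcripts of other genes, mostly the processed pseudogene Krt8-ps, so its reads could be split or lost in counting. The Krt18 transcript shares no such window, nor do those of Krt15, Krt17 and Krt19. The ratio of Krt18 to Krt8 RPKM within a library was 1.16 ± 0.326 in Het libraries and 0.818 ± 0.317 in WT libraries (SD, n = 5 and 8), with ranges of 0.863 to 1.67 in Het and 0.433 to 1.49 in WT that overlap. Krt18 and Krt8 had a Pearson r of 0.43 over the 13 libraries (adjusted permutation p = 0.508). Once values were centred within prefix and genotype, r was 0.04 (exact permutation p = 0.931).

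Markers of other cells that hold Krt8 and Krt18 were set beside these values. The list for Merkel cells, the touch cells of oral epithelium, holds 6 genes. Of these, Atoh1 and Pou4f3 were at 0 counts in every library, and Insm1 had at most 3 counts. Isl1, Piezo2 and Syp were detected. Isl1 had a mean of 133.8 CPM in Het libraries and 114.2 in WT libraries, with a log2 fold change of 0.23 ± 0.13 (SE). Piezo2 had 11.99 CPM in Het and 12.67 in WT (-0.08 ± 0.25). Syp had 0.94 CPM in Het and 1.25 in WT (-0.41 ± 0.30). Whether Merkel cells were present was not tested. Of the 6 Merkel genes, 3 were tested and 0 called, and their summed level, mostly Isl1, was 125 to 177 CPM in Het libraries and 110 to 154 in WT libraries. Genes shared by simple epithelia (Epcam, Cdh1, Cldn3, Cldn7, Esrp1 and Elf3; 4 tested, 0 called) summed to 113 to 153 CPM in Het libraries and 114 to 176 in WT libraries, with Cldn3 at 2 counts at most. Of 8 salivary gland genes, 1 was tested and 0 called, their sum was at most 0.511 CPM in Het libraries and 0.855 in WT libraries, and Smr2, Prol1, Aqp5, Muc19, Dcpp1 and Pip had at most 3 counts. The part of cell makeup in the Krt18 difference was not tested.

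Krt14 and Krt5 are the pair of basal epithelial cells, and neither passed the test between genotypes. Krt14 had 979, 589, 853, 868 and 948 CPM in the Het libraries and 596, 952, 795, 718, 824, 715, 1013 and 804 CPM in the WT libraries, again in the order given above. All 5 Het values lay within or just below the WT range, and Het 4-2 was the lowest of all 13. The log2 fold change was 0.08 ± 0.14 (SE, edgeR Benjamini-Hochberg adjusted p = 0.936) and was 0.19 ± 0.14 without Het 4-2, with 0.03 to 0.19 when each library was left out in turn. Krt5 had 321, 375, 441, 269 and 349 CPM in the Het libraries and 295, 310, 252, 375, 356, 317, 265 and 236 CPM in the WT libraries. The Krt5 groups overlap, with 2 of 5 Het libraries above every WT library. Its log2 fold change was 0.22 ± 0.13 (SE, edgeR Benjamini-Hochberg adjusted p = 0.776), with Het minus WT differences of 0.18, 0.22 and 0.29 in prefixes 1, 4 and 5. It was 0.14 ± 0.14 without Het 4-5. Of its 75-base windows, 7.77% also occur in other genes, mostly Krt6a, and 5.71% of those of Krt14 occur in Krt16.

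**Figure D2:**
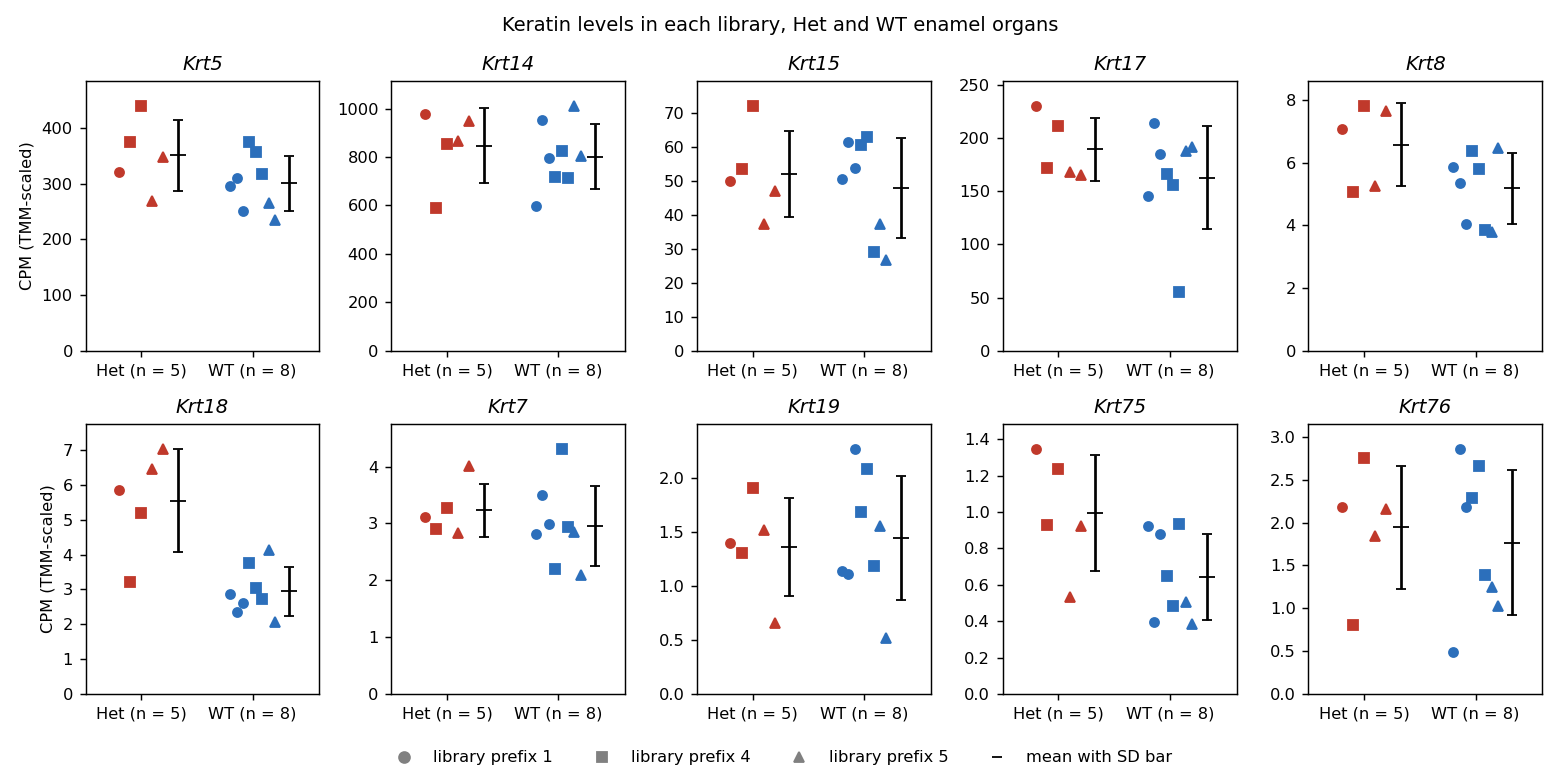
Level of each keratin in every library (CPM, linear axes from 0, 1 panel per gene), Het left and WT right, with marker shape for the library prefix and the mean ± SD beside each group. The groups overlap in every panel, and for Krt18 4 of 5 Het libraries lie above all 8 WT libraries.

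The levels of Krt14 and Krt5 had a Pearson r of -0.17 across the 13 libraries and of 0.44 once values were centred within prefix and genotype, neither past the threshold. Their ratio moved with the library prefix. The Krt14 to Krt5 ratio of RPKM was 3.12 ± 0.896 in Het libraries and 3.43 ± 0.888 in WT libraries (SD, n = 5 and 8). By prefix, it ran from 2.52 to 3.95 in the 4 libraries of prefix 1, from 1.96 to 2.89 in the 5 of prefix 4 and from 3.39 to 4.78 in the 4 of prefix 5. The libraries of prefix 4 and prefix 5 did not overlap, but how often ratios of other gene pairs lie apart between these prefixes was not counted. Within prefixes the Het mean was 3.80 against 3.43 in WT in prefix 1, 2.19 against 2.70 in WT in prefix 4, and 3.71 against 4.52 in WT in prefix 5. The summed level of 6 cervical loop genes (5 tested, 0 called), mostly Igfbp5, moved with the prefix as well: it was 179 to 226 CPM in prefix 1, 252 to 331 in prefix 4 and 133 to 154 in prefix 5. Prefix 4 also lay apart from prefix 5 in the sums of 8 fibroblast genes (6708 to 11829 CPM in prefix 4, 4417 to 6264 in prefix 5) and of the 4 secretory ameloblast genes (145420 to 242129 CPM in prefix 4, 263871 to 288082 in prefix 5). The same held for the genes that anchor or organise keratin filaments (956 to 1018 CPM in prefix 4, 703 to 866 in prefix 5) and for the regulators of keratin genes (1073 to 1332 CPM in prefix 4, 777 to 999 in prefix 5). It held too for other intermediate filament genes (568 to 851 CPM in prefix 4, 361 to 475 in prefix 5). Single genes weigh heavily in these sums. The last is mostly the lamin Lmna, with a mean of 420 CPM in Het libraries and 424 in WT libraries. Kdm6b of the regulators had 372 CPM in Het and 500 in WT, and Csnk1a1 of the first list had 200 in Het and 206 in WT. In all the other lists the ranges of prefix 4 and prefix 5 overlapped. Examples are stratum intermedium and papillary cells (443 to 652 CPM in prefix 4, 450 to 493 in prefix 5) and maturation ameloblasts (26805 to 55047 CPM in prefix 4, 39652 to 55092 in prefix 5). The share of all genes whose ranges lie apart between these prefixes was not counted. The part of these sums in the ratio was not tested.

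**Figure D3:**
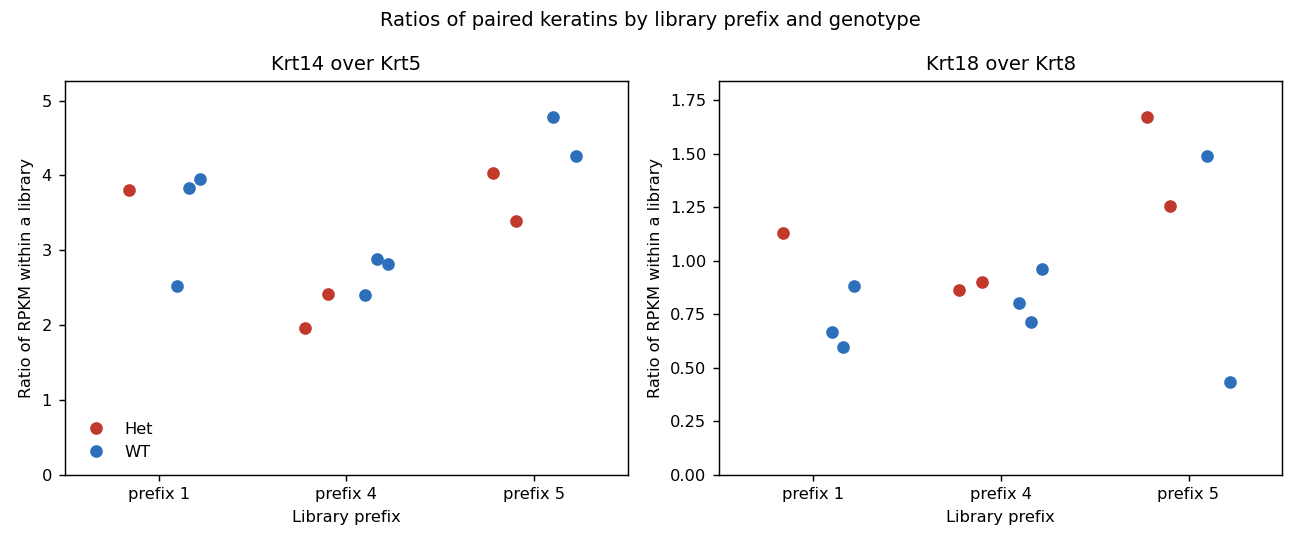
Ratio of RPKM within each library for Krt14 over Krt5 (left) and Krt18 over Krt8 (right), by library prefix, Het left of WT. The Krt14 to Krt5 ratio is 1.96 to 2.89 in prefix 4 and 3.39 to 4.78 in prefix 5, while the Krt18 to Krt8 ratio overlaps between Het and WT.

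Krt15 and Krt17 are type I keratins, Krt15 of basal and progenitor cells and Krt17 of skin appendages and activated epithelium. Krt17 had 230, 172, 211, 168 and 165 CPM in the Het libraries and 145, 214, 185, 166, 156, 55.1, 188 and 191 CPM in the WT libraries. The WT library 4-4 was far below the other 12, at 55.1 CPM, and the groups otherwise overlap. WT 4-4 also had the lowest sum of secretory ameloblast genes of all 13 libraries (145420 CPM) and the highest sum of fibroblast genes (11829 CPM). The part of tissue makeup in its Krt17 level was not tested. The log2 fold change of Krt17 was 0.22 ± 0.21 (SE, edgeR Benjamini-Hochberg adjusted p = 0.862), and 0.09 ± 0.12 without WT 4-4. Krt15 had 50.0, 53.6, 72.2, 37.4 and 47.1 CPM in the Het libraries and 50.6, 61.6, 53.9, 60.4, 63.0, 28.9, 37.4 and 26.8 CPM in the WT libraries. Het 4-5 was the highest of all 13, and 4 of 5 Het libraries lay within the WT range. Its log2 fold change was 0.12 ± 0.20 (SE, edgeR Benjamini-Hochberg adjusted p = 0.927) and was -0.02 without Het 4-5.

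The other 4 members were low, at most 93 counts in any library, so their changes were measured with little precision. Krt75, a type II keratin of the companion layer of the hair follicle, whose human variants have been linked to enamel that decays more easily, had 1.35, 0.93, 1.23, 0.53 and 0.92 CPM in the Het libraries. It had 0.92, 0.40, 0.88, 0.65, 0.48, 0.94, 0.51 and 0.38 CPM in the WT libraries, on 9 to 23 counts, against 13 to 35 counts in Het. The highest 2 of all 13 libraries were Het, and the other 3 Het libraries lay within the WT range. Its log2 fold change was 0.62 ± 0.33 (SE, edgeR Benjamini-Hochberg adjusted p = 0.753), with Het above WT in the means of all 3 prefixes (0.88, 0.62 and 0.58). Krt7, a type II keratin of simple and glandular epithelia, had 2.83 to 4.00 CPM in Het libraries and 2.10 to 4.31 in WT libraries, with a log2 fold change of 0.13 ± 0.19. Krt19, a type I keratin with a short tail found in simple epithelia and epithelial progenitors, had 0.660 to 1.90 CPM in Het libraries and 0.513 to 2.27 in WT libraries, with a log2 fold change of -0.08 ± 0.32. Krt76, a type II keratin of the palate, had 0.801 to 2.75 CPM in Het libraries and 0.488 to 2.86 in WT libraries, with a log2 fold change of 0.14 ± 0.35. For Krt7, Krt19 and Krt76 the Het range lay inside the WT range. The exons of Krt75 and Krt76 overlap small RNA genes on the other strand, which share 1.72% and 1.65% of their windows.

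No pair of members passed the test of varying together over the 13 libraries. Of 45 pairs, 0 passed an adjusted p of 0.05 for the Pearson correlation of log2 CPM (permutation test, 100000 resamples, Benjamini-Hochberg), 3 had an unadjusted p under 0.05, and 37 were positive. The 3 were Krt5 with Krt15 (r 0.67, rho 0.60, adjusted permutation p = 0.351), Krt14 with Krt76 (r 0.65, rho 0.44, adjusted permutation p = 0.351) and Krt15 with Krt19 (r 0.57, rho 0.54, adjusted permutation p = 0.508). Without the 2 libraries farthest from the median of the first gene, r was 0.40, 0.11 and 0.28 for these pairs. With values centred within each prefix and genotype, r was 0.92 for Krt14 with Krt76, 0.89 for Krt15 with Krt17 and 0.69 for Krt5 with Krt15. The exact permutation test within those cells has 288 arrangements and cannot go below p = 0.00347. A pair alone at that value could not pass adjustment over 45 pairs, and could pass only along with other pairs of low p. The smallest exact adjusted p was 0.0781, and the 0 adjusted calls do not show that any given pair varies apart. At an unadjusted exact p under 0.05 the test had 7 pairs, and Krt14 with Krt76 and Krt15 with Krt76 were at the smallest value.

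For Krt18, the member of smallest p, and Krt14, the most abundant, the genes with the highest Pearson r across libraries were sought. Only genes past a cut on mean log2 CPM were compared. The cut left out Krt7, Krt19, Krt75 and Krt76, and for Krt14 also Krt18, so few keratins could appear. Of the members compared, the highest was Krt14 for Krt18 (r 0.43, rank 1423) and Krt17 for Krt14 (r 0.41, rank 2661). Over the 13 libraries, the 5 genes with the highest Pearson r with Krt18 were Duoxa1 (0.89), Pebp1 (0.89), Exoc1 (0.88), Trpv2 (0.88) and Cib2 (0.84), of 10710 genes compared. Centred within prefix and genotype, r was 0.64 for Duoxa1, 0.91 for Pebp1, 0.56 for Exoc1, 0.40 for Trpv2 and 0.51 for Cib2. Duoxa1 is a maturation factor of the dual oxidases and Trpv2 a cation channel. Cib2, a calcium-binding protein, was itself among the called genes (log2 fold change 0.59, edgeR Benjamini-Hochberg adjusted p = 0.0292). For Krt14 they were Tmem126b (0.93), Laptm4a (0.92), Ppp1r11 (0.92), Ebp (0.91) and Taldo1 (0.91), whose centred r ran from 0.88 to 0.96. All libraries share their scaling, and these values describe only the libraries here.

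Of the 44 other keratin genes, 39 had counts, 15 passed the filter and 0 were called by edgeR or DESeq2, with 2 at an unadjusted edgeR p under 0.05. Their log2 fold changes were above 0 for 6 and below 0 for 9, with a median of -0.32. The highest levels over the 13 libraries were those of Krt6a (5.26 RPKM), Krt10 (2.49), Krt27 (2.34), Krt42 (1.68), Krt222 (1.24) and Krt6b (1.11), so that only Krt6a lay above Krt8. Krt10 marks the suprabasal layers of epidermis, and Krt6a and Krt6b are keratins of activated epithelium that pair with Krt16 and Krt17. The smallest p were those of Krt71, a keratin of the inner root sheath of hair, and Krt16. Krt71 had 0.885 to 2.51 CPM in Het libraries and 0.325 to 1.32 in WT libraries, with a log2 fold change of 1.19 ± 0.34 (SE, edgeR Benjamini-Hochberg adjusted p = 0.306). Krt16 had 0.0843 to 0.697 CPM in Het libraries and 0.504 to 1.75 in WT libraries, with a log2 fold change of -1.29 ± 0.45 (SE, edgeR Benjamini-Hochberg adjusted p = 0.520). Next were Krt6b (-0.86 ± 0.44) and Krt25 (-0.57 ± 0.30), which did not pass either.

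**Figure D4:**
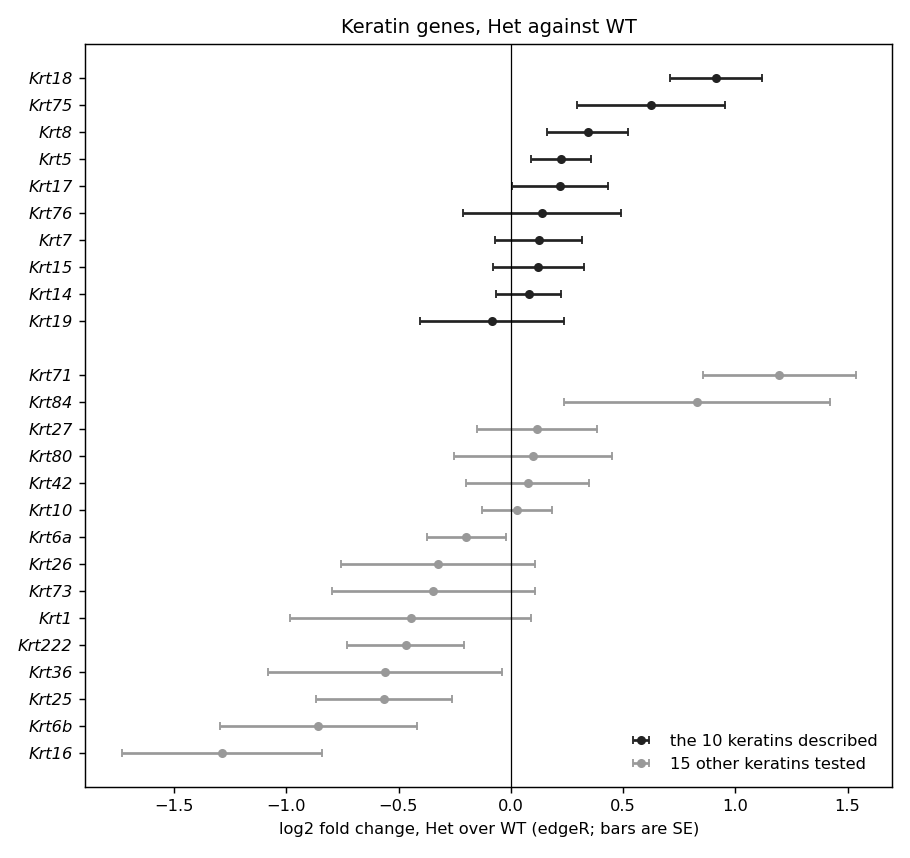
Log2 fold change, Het over WT, with its SE for the 10 keratins described (black, above) and the 15 other keratins tested (grey, below). Krt18 has 0.91 ± 0.21, the members' median is 0.18, that of the other keratins is -0.32, and none passes edgeR's adjusted threshold, while DESeq2 called Krt18.

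The genes that work with keratins did not pass either, by edgeR or DESeq2, and 0 in the following 3 lists had an unadjusted edgeR p under 0.05. Of 13 tested genes that anchor or organise keratin filaments 0 were called, 6 were above and 7 below 0 and the median log2 fold change was -0.04. The smallest p were those of the plakophilins Pkp3 (0.15 ± 0.10) and Pkp1 (-0.15 ± 0.11). Of 10 tested transcription regulators of epithelial keratin genes or dental epithelium, 0 were called, 5 were above and 5 below 0 and the median was -0.01. The smallest p were those of the histone demethylase Kdm6b (-0.42 ± 0.22) and Klf5 (-0.37 ± 0.21). Of 8 tested intermediate filament genes other than keratins, 0 were called, 3 were above and 5 below 0 and the median was -0.01. The smallest p were those of nestin, Nes (-0.30 ± 0.23), and the lamin Lmnb1 (-0.15 ± 0.14). Among the cell type lists, 0 of 5 maturation ameloblast genes were called, though all 5 were below 0. Of these genes, 2 (Amtn and Klk4) had an unadjusted edgeR p under 0.05, against 6.90% of all genes. The sum of the 5 genes was 26805 to 51799 CPM in Het libraries and 39674 to 55092 in WT libraries. That sum is mostly Odam, with a log2 fold change of -0.29 ± 0.18. All tested genes were below 0 also in the lists for odontoblasts and bone (6 genes), skeletal muscle (6) and osteoclasts (4). In the lists for secretory ameloblasts, stratum intermedium and papillary cells, fibroblasts, odontoblasts and bone, skeletal muscle, endothelium, macrophages, Schwann cells, red cells and osteoclasts, 0 genes were called as well. In them 3 genes had an unadjusted edgeR p under 0.05. They were Cd24a, Mbp (0.68 ± 0.21) of the Schwann cell list and Acp5 (-0.36 ± 0.17) of the osteoclast list. DESeq2 called 0 genes of any list. Of the 6 genes for stratum intermedium and papillary cells, 2 were above and 4 below 0 with a median log2 fold change of -0.06. The gene of smallest p among them, Cd24a, had 140 ± 15.3 CPM in Het libraries and 98.5 ± 22.6 in WT libraries (SD, n = 5 and 8), with a log2 fold change of 0.51 ± 0.14 (SE, edgeR Benjamini-Hochberg adjusted p = 0.299).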

How the data were processed

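Total RNA of enamel organs was made into unstranded Nextera XT libraries and read as single reads of 75 bases, per the labels' protocols. The submitters' processing notes name STAR 2.5.2a, the build GRCm38, and DESeq2, edgeR and limma without a role. The counting tool is not named there. Raw counts as deposited cover 48733 features, of which 24 are not mouse genes and stayed out (at most 0.000177% of a library's counts). They also deposited a filtered count table with the same counts and a normalized signal per gene (CPM with TMM scaling, by the table's name), which equals the counts times 1 constant per library and was used for no test. Columns carry the genotype and none of the labels' replicate numbers, so each was assigned to a genotype only. Without strand, a gene and its antisense partner cannot be told apart.

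Counts were filtered with filterByExpr (minimum 10) and tested with edgeR 4.0.16 in R 4.3.3 (TMM, robust glmQLFit, glmQLFTest, Benjamini-Hochberg). DESeq2 1.42.0, limma-voom (limma 3.58.1), other scalings and filters, the prefix as a term, and leaving out libraries were alternatives. The edgeR step was tested on simulated data. Log2 CPM used a prior count of 2; RPKM used exon lengths of GENCODE M21. The named genes are the 10 members, and of the other keratins the 6 of highest level and the 4 of smallest p. In the lists of anchoring genes, regulators and other intermediate filament genes they are up to 4 past the threshold or else the 2 of smallest p. The 5 genes with the highest Pearson r with Krt18 and with Krt14 are named too. Cell type lists are given as sums. Genes of those lists named beside them, and genes of any list named for their level in its sum, were chosen after their values were seen. The members and lists were chosen with earlier results of these data known.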

Additional observations from a re-analysis of the deposited data

Results flagged for a closer look

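Among the 20 groups formed by 10 members and both genotypes, 1 library stood far from the others in 2, where chance gives about 1 in 20 groups. Krt14 was low in Het 4-2, at 9.20 log2 CPM. Krt17 was low in WT 4-4, at 5.79 log2 CPM. Krt13 and Krt4, keratins of non-cornified oral mucosa were high in WT 1-3, at 17.4 CPM and 12.9 CPM. These 2 genes were chosen after their values were seen, so no chance rate applies to them. Krt13 had 439 counts there and at most 6 in any other library, and Krt4 had 325 counts there and at most 8 in any other, so neither was tested. In WT 1-3 the summed level of 8 genes of stratified oral mucosa (2 tested, 0 called), mostly Dsg1a, was 38.3 CPM, the highest of all libraries. The sum was 17.2 to 27.1 CPM in Het libraries and 12.4 to 22.7 CPM in the other WT libraries. WT 1-3 was also the highest library for Krt6a (21.1 CPM), Krt6b (6.96 CPM) and the member Krt76 (2.86 CPM).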

How the results depend on the processing

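No paired analysis was possible because the columns carry no replicate number from the labels. The fit with the library prefix as a term is given in its place. The edgeR count of 14 called genes became 27 when low counts were kept, 25 under a filter of 1 CPM in 5 libraries, 30 with the library prefix as a term and 71 with DESeq2. Without the libraries of prefix 1, 4 and 5 it was 0, 1 and 2. Leaving out each library in turn gave 6 to 22, with 8 on leaving out Het 1-2, 6 for Het 4-2, 7 for Het 5-5, 6 for Het 5-6, 8 for WT 1-1, 9 for WT 1-4 and 22 for WT 5-1. The count of called members was 0 except with DESeq2, where it was 1 (Krt18, log2 fold change 0.92). By DESeq2, Krt18 had 0.80 without prefix 1 (adjusted p = 0.498) and 0.71 without prefix 5 (adjusted p = 0.348), where it was not called, and 0.81 to 1.06 when libraries were left out in turn. Small changes turned sign: Krt15 was -0.033 without prefix 4 and -0.017 to 0.22 when libraries were left out in turn, Krt7 was -0.0047 without prefix 5, Krt76 was -0.050 without prefix 5 and -0.017 to 0.33 when libraries were left out in turn, and Krt19 was -0.23 to 0.090 in the same fits. The DESeq2 fits that left out libraries, and the centred correlations, were chosen after seeing the data. The cause was not tested. Depth limits Krt75, Krt76, Krt19 and Krt7, which had at most 93 counts in a library.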
